A study of Mus musculus with 14 samples.

Results

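The genes described here encode the nuclear part of the mitochondrial respiratory chain and ATP synthase. They were taken from the amplicon targets by gene symbol: every symbol beginning with Ndufa, Ndufb, Ndufc, Ndufs, Ndufv, Sdha, Sdhb, Sdhc, Sdhd, Uqcr, Cox4, Cox5, Cox6, Cox7, Cox8 or Atp5, with a total of at least 140 reads over the 14 libraries. Of 23930 targets 84 carried such a symbol and 77 passed the read total, so 77 genes are described. They comprise 7 core and 24 accessory subunits of complex I, 4 of complex II, 8 of complex III, 11 of complex IV and 11 of complex V. The prefixes Ndufa and Sdha also take in 12 assembly factors (Ndufaf1 to Ndufaf8 and Sdhaf1 to Sdhaf4), which are not subunits and are kept as a group of their own. Ndufa4, named after complex I, is counted with complex IV, to which its protein belongs. Just inside the read total lay Cox7a1 with 370 reads, and just outside lay Cox6c with 122. The other genes outside were Cox8a with 114 reads, Ndufa4l2 with 42, Cox8b with 18, Cox8c with 8, Cox4i2 with 6 and Cox7b2 with 2. Subunits such as Ndufs5, Ndufab1, Cox7c and Atp5g1 had no matched target and were not analysed here.

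The libraries were made from LSECs (liver sinusoidal endothelial cells, which line the capillaries of the liver and carry pores), isolated by flow cytometry as CD45-dim, STAB2-high and CD146-high cells. All donors were wild-type C57BL/6J females. Aged animals were 10 to 11 months old and young animals 8 to 10 weeks old, and each age has 7 libraries: 3 from experiment 1 and 4 from experiment 2. A name such as aged 2.4 gives the age, then the experiment, then the replicate. Whether each library came from its own mouse is not said outright in the labels, so p-values reflect only how these samples spread, and part of that spread may be technical.

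The respiratory chain is a series of protein complexes in the inner mitochondrial membrane. Complexes I and II take electrons from NADH and succinate, complex III passes them from ubiquinol to cytochrome c, and complex IV hands them to oxygen, while complex V uses the resulting proton gradient to make ATP. Most subunits are encoded in the nucleus, and many of their genes are known targets of the transcription factors NRF1, NRF2 (GABP, an ETS family protein), YY1 and the ERR alpha receptor. Endothelial cells are known for drawing much of their ATP from glycolysis.

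Promoter sequence was not used in the choice by name. The stretches printed here were picked because each holds the letters of 1 such factor, while most windows searched held none. The RefSeq table of GRCm38.p6 held 64 of the 77 genes, each with 250 bases before and 50 after the annotated start. The motifs searched, each on both strands, were GCGCATGC for NRF1, CCGGAAGT for the ETS family, AAGATGGC for YY1 and TCAAGGTCA for ERR alpha. Capitals mark the motif, and where the reverse strand matched the capitals read as its complement. The stretches of Atp5k (chr5:108434400-108434499, minus strand), Ndufa8 (chr2:36049339-36049438, minus), Sdhb (chr4:140961171-140961270, plus) and Atp5g3 (chr2:73911327-73911426, minus) run from 100 bases to 1 base before the start. That of Cox6a1 (chr5:115349019-115349118, minus) runs from 160 to 61 bases before it.
Atp5k: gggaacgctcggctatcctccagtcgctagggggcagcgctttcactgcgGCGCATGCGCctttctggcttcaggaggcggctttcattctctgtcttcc
Ndufa8: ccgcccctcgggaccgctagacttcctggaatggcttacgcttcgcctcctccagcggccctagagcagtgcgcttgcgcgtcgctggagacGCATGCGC
Sdhb: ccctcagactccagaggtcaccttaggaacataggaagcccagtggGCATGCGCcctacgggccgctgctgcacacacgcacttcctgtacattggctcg
Cox6a1: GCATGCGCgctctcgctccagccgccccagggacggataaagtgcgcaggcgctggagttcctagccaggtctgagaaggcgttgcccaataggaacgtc
Atp5g3: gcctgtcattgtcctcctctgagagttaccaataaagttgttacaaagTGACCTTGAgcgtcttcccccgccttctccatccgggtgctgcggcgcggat

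The NRF1 letters lay in the windows of 10 of the 64 genes (15.6%), against 2.82% of all 26742 promoter windows and 4.86% of the 10614 windows of targets tested here. These genes were Atp5k, Cox6a1, Ndufa6, Ndufa8, Ndufa11, Ndufaf4, Ndufaf5, Sdhb, Uqcr11 and Uqcrc1. The YY1 letters lay in 9 of 64 (14.1%), against 2.9% of all windows and 4.22% of the tested ones. The ETS letters lay in 3 of 64 (4.69%), against 4.04% and 7.24%, and the ERR alpha letters in 2 of 64 (3.12%), against 0.396% and 0.245%. No window held both NRF1 and YY1 letters. In the Atp5k stretch both strands match around the same palindrome, so its capitals span more than one match. These are matches of letters and say nothing of binding in these cells. The median log2 fold change of aged over young was 0.01 for the 10 genes with NRF1 letters and 0.02 for the 54 without.

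Each library held 6710403 to 13977361 gene reads, and the 77 genes took 0.657 to 0.967% of them. Levels are given as CPM, the reads of a target scaled to a fixed total of gene reads, after TMM scaling, edgeR's trimmed-mean factor for each library. The CPM of cell type markers, here and further on, are without TMM scaling. Each value counts 1 amplicon per gene, so levels are compared between libraries and not between genes. The 12 LSEC markers, among them Stab2 and Lyve1, were all detected and summed to 23900 to 32900 CPM per library. Markers of other cell types were uneven. Hepatocyte markers summed to 10300 CPM in aged 1.3 and 497 to 2150 elsewhere, and Kupffer, B and T and NK cell markers were also highest there, at 349, 384 and 501 CPM. Aged 2.2 held 869.6 CPM of cholangiocyte, 248 of Kupffer and 225 of B cell markers, aged 2.1 held 164 of B cell markers and young 2.2 held 187 of T and NK cell markers. Receptor targets for smell, taste and pheromones, which are not known as LSEC genes, took very different shares of reads in the libraries. Experiment 1 had 1.20 to 3.18% of its gene reads on them and experiment 2 had 0.146 to 2.93%, where aged 2.4 and young 2.2 held 2.82% and 2.93% and the other 6 libraries at most 0.962%. In bulk RNA, fewer cells of a type and less RNA per cell cannot be told apart.

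The comparison of age asks whether LSECs of aged mice carry more or less respiratory chain mRNA than those of young mice. No gene of the 77 passed an adjusted p of 0.05 (edgeR quasi-likelihood F test with experiment as a term, Benjamini-Hochberg over 14168 targets), beside 23 of all targets (0.162%), 11 of those higher and 12 lower in aged libraries (28 and 18 without TMM). At an unadjusted p under 0.05 there were 2 of 77 (2.6%) beside 959 of all targets (6.77%), both lower in aged libraries: Atp5j and Ndufaf6. DESeq2 and limma-voom called 0 of the 77 as well, and DESeq2 called 146 of all targets. The log2 fold changes of the 77 had a median of 0.02 and ran from -0.44 to 0.41, beside a median of 0.00 over all targets. Their median size without sign was 0.08, beside 0.15 over all targets.

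In the same fit many markers of other cells were higher in aged libraries, with none called after adjustment. All 8 tested Kupffer cell markers were higher (median log2 fold change 1.71, 7 with an unadjusted p under 0.05). So were all 5 B and plasma cell markers (3.07, 5) and 10 of 11 hepatocyte markers (0.83, 0). Other lists were mixed. Of 5 T and NK cell markers 4 were higher (log2 fold changes -1.66 to 2.50), and of 8 stellate cell markers 6 (-1.47 to 0.97). All 3 cholangiocyte, 2 of 2 erythroid and 2 of 3 striated muscle markers were higher. Of the 12 LSEC markers 2 were higher (median -0.11). The part of other cells in the age differences of the 77 genes was not tested.

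The data bound the age differences closely for most of the 77 genes. The 95% interval of the age fold change lay within 1.5-fold in either direction for 67 of the 77 (87%), beside 41.2% of all targets. Among the 12771 targets in the same range of CPM the share was 44.2%. That range takes in most of the 14168 targets, so these shares are not matched for level. The interval lay within 2-fold for 73 of 77 (94.8%), beside 62.9% of all targets. The 4 genes whose interval went past 2-fold were Cox6a2, Cox6b2, Cox7a1 and Sdhaf1. Higher values in aged libraries were seen for 45 genes and lower values for 32, but this split moved with scaling: it was 55 and 22 without TMM and 39 and 38 with DESeq2 size factors. The aged and young libraries overlapped for all 77 genes, and they were separate for 33 of all targets (0.233%).

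**Figure D1:**
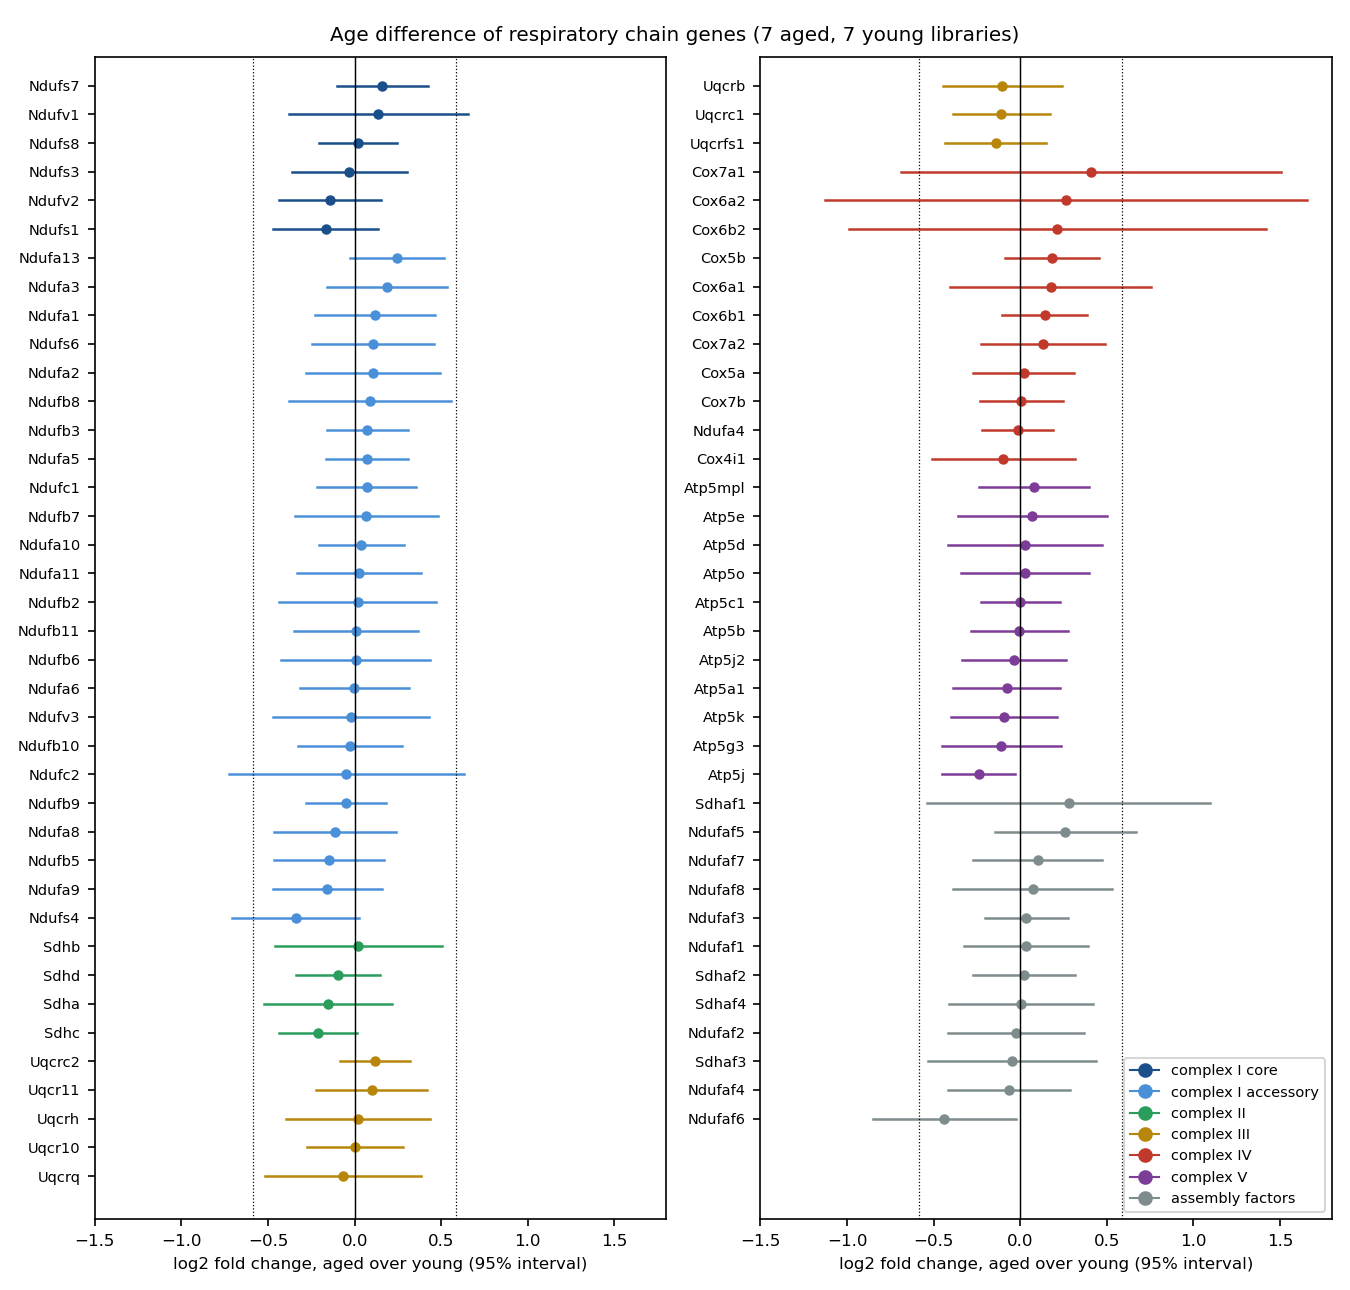
Log2 fold change of aged over young (points) with its 95% interval (lines) for 76 of the genes, coloured by complex, from 7 aged and 7 young libraries. The solid line marks no difference and the dotted lines 1.5-fold; 66 of the plotted intervals lie between the dotted lines, and those of Cox6a2, Cox6b2 and Cox7a1 are the widest.

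Among the 7 core subunits of complex I, which include those that carry the flavin and the iron-sulfur clusters, 3 were higher and 4 lower in aged libraries, with a median log2 fold change of -0.03. Ndufs7, the subunit that binds the last iron-sulfur cluster before ubiquinone, ranged from 108 to 160 CPM in aged libraries (median 139) and from 104 to 138 in young (median 121), with a fitted log2 difference of 0.16 ± 0.12 (SE, adjusted p = 0.9995 by edgeR). Ndufs1, the largest iron-sulfur subunit, ranged from 109 to 231 CPM in aged libraries (median 168) and from 165 to 242 in young (median 180), a log2 fold change of -0.17 ± 0.14 (SE). Ndufv2, a subunit of the NADH-binding arm, had a log2 fold change of -0.14 ± 0.14 (SE), and Ndufv1, which binds NADH, one of 0.14 ± 0.24 (SE). In all 4 of these genes the ages overlapped.

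Of the 24 accessory subunits of complex I, 15 were higher and 9 lower in aged libraries, with a median of 0.02. Ndufs4, whose loss in mice gives an encephalopathy like Leigh syndrome, lay between 20.9 and 47.1 CPM in aged libraries (median 34.0) and between 38.4 and 56.2 in young (median 42.0). Its log2 fold change was -0.34 ± 0.17 (SE, adjusted p = 0.803 by edgeR), and 4 of 7 aged libraries lay below the mean log2 level of the young libraries of their own experiment. Ndufa13, also known as GRIM-19, lay between 53.6 and 96.6 CPM in aged libraries (median 69.5) and between 50.4 and 69.5 in young (median 57.2), with a fitted log2 difference of 0.25 ± 0.13 (SE, adjusted p = 0.816). Without aged 2.2 it was 0.12. Ndufa3 had a log2 fold change of 0.19 ± 0.16 (SE), which was 0.03 without aged 2.2, and Ndufb9, the most counted gene of the group, one of -0.05 ± 0.11 (SE) with an aged mean of 305 ± 48.1 CPM and a young mean of 316 ± 36.1 CPM (SD, n = 7 each).

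Complex II is the only one of these complexes built wholly from nuclear genes, and it also works in the citric acid cycle. Of its 4 subunits 3 were lower in aged libraries, with a median log2 fold change of -0.13, and none passed the test. Sdhc, a membrane anchor, lay between 115 and 178 CPM in aged libraries (median 141) and between 123 and 199 in young (median 160.0). Its log2 fold change was -0.21 ± 0.11 (SE, adjusted p = 0.796 by edgeR), and 6 of 7 aged libraries lay below the young mean of their experiment. Sdha, the flavoprotein that oxidises succinate, had a log2 fold change of -0.16 ± 0.17 (SE), and Sdhd, the other anchor, one of -0.10 ± 0.11 (SE). Sdhb, the iron-sulfur subunit, had an aged mean of 59.9 ± 18.4 CPM and a young mean of 59.6 ± 14.1 CPM (SD, n = 7 each), and its log2 fold change of 0.02 changed sign when aged 2.1 was left out (-0.08).

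The 8 complex III genes divided evenly, with 4 higher and 4 lower and a median of -0.03. Uqcrc2, a core protein, lay between 145 and 183 CPM in aged libraries (median 161) and between 123 and 171 in young (median 154), a log2 fold change of 0.12 ± 0.10 (SE). Uqcrfs1, the Rieske iron-sulfur protein, had a log2 fold change of -0.14 ± 0.14 (SE), and Uqcrc1, the other core protein, one of -0.11 ± 0.13 (SE). The ages overlapped in all 8 complex III genes.

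In complex IV, which reduces oxygen, 9 of 11 genes were higher in aged libraries, with a median log2 fold change of 0.14, and none passed the test. Cox5b lay between 79.4 and 165 CPM in aged libraries (median 145.0) and between 99.1 and 159 in young (median 114), with a fitted log2 difference of 0.19 ± 0.13 (SE, adjusted p = 0.9995 by edgeR), with 6 of 7 aged libraries above the young mean of their experiment. Cox6b1, which sits on the outer face of the enzyme, lay between 271 and 387 CPM in aged libraries (median 286) and between 236 and 332 in young (median 285), a log2 fold change of 0.14 ± 0.11 (SE). Cox6a1, Cox7a2 and Cox4i1 had log2 fold changes of 0.18 ± 0.27, 0.13 ± 0.17 and -0.10 ± 0.19 (SE), and that of Cox6a1 was 0.01 without aged 2.1. Ndufa4 had an aged mean of 254 ± 24.2 CPM and a young mean of 257 ± 32.6 CPM (SD, n = 7 each), and over all 14 libraries its coefficient of variation, 10.8%, was the lowest of the 77 genes. The 11 complex IV genes include Cox6a2, Cox6b2 and Cox7a1, the isoforms described further on.

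In complex V 5 of 11 genes were higher and 6 lower, with a median of -0.01. Atp5j, coupling factor 6 in the stalk of the enzyme, lay between 181 and 252 CPM in aged libraries (median 218) and between 204 and 303 in young (median 273). All 7 aged libraries lay below the young mean of 260.0 CPM, although the ages overlapped. The log2 fold change of Atp5j was -0.24 ± 0.10 (SE, unadjusted p = 0.0267, adjusted p = 0.673 by edgeR), and over the alternatives its value stayed between -0.28 and -0.18. It was -0.35 ± 0.15 (SE) in experiment 1 and -0.16 ± 0.13 (SE) in experiment 2. Atp5a1, the alpha subunit of the catalytic head, had a log2 fold change of -0.08 ± 0.14 (SE) with an aged mean of 440 ± 89.8 CPM and a young mean of 464 ± 63.6 CPM (SD, n = 7 each). Atp5g3, a proton channel subunit, had one of -0.11 ± 0.16, Atp5k one of -0.10 ± 0.14 and Atp5d one of 0.03 ± 0.21 (SE).

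Among the 12 assembly factors 8 were higher and 4 lower, with a median of 0.03. Ndufaf6, an assembly factor of complex I, lay between 5.90 and 9.42 CPM in aged libraries (median 7.5) and between 7.95 and 12.6 in young (median 10.1). Every aged library lay below the young mean of 9.93 CPM, and the log2 fold change was -0.44 ± 0.19 (SE, unadjusted p = 0.0384, adjusted p = 0.701 by edgeR). This was 1 of the 3 least counted assembly factors, with 58 reads in its lowest library. Ndufaf5 had a log2 fold change of 0.26 ± 0.19, Sdhaf3 one of -0.05 ± 0.23 and Sdhaf2, which attaches the flavin to Sdha, one of 0.02 ± 0.14 (SE). Sdhaf1 ranged from 14.95 to 99.2 CPM in aged libraries (median 49.4) and from 16.1 to 57.6 in young (median 33.5). Its log2 fold change of 0.28 ± 0.38 (SE) became -0.22 without aged 2.4, its highest library.

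**Figure D2:**
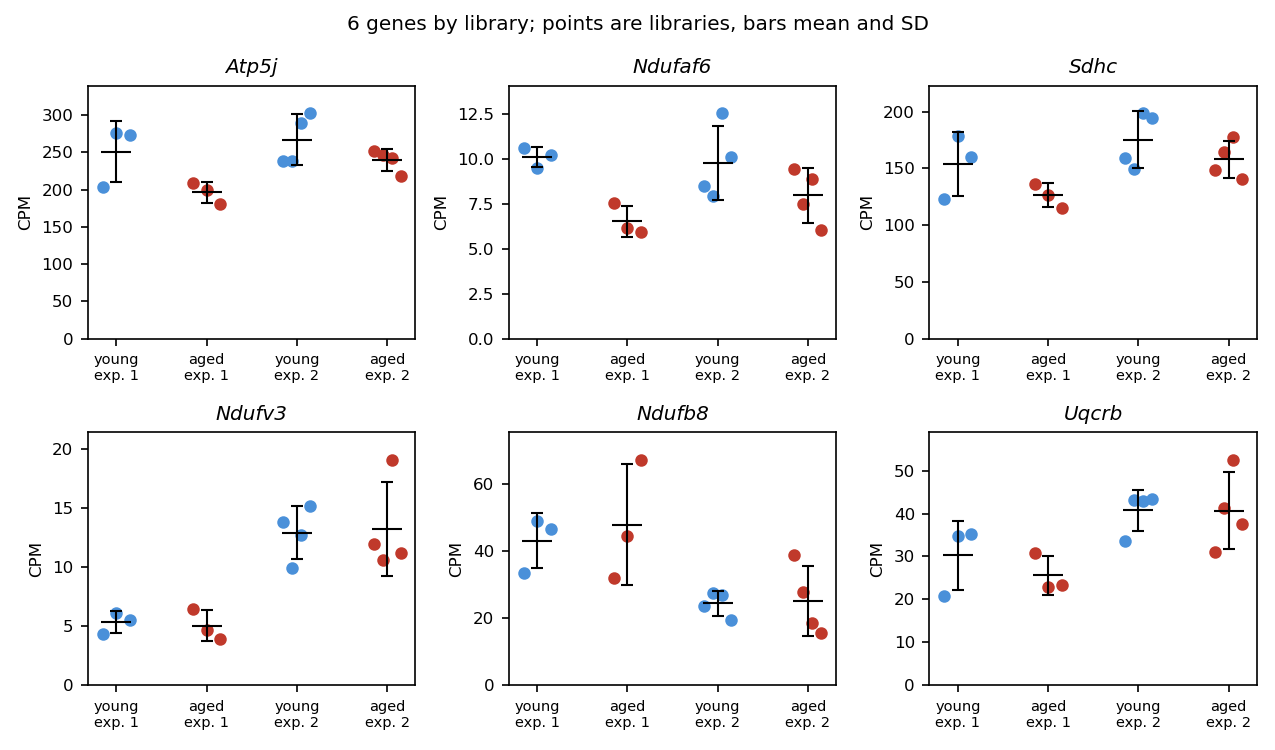
CPM of 6 genes in each library (points), with the mean and SD of each age in each experiment (bars). Atp5j, Ndufaf6 and Sdhc are shown for age, where the ages overlap, and Ndufv3, Ndufb8 and Uqcrb for experiment, where the experiments separate without overlap in Ndufv3.

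The 2 experiments were then read apart. In experiment 1 no gene of the 77 passed an adjusted p of 0.05 by edgeR, beside 0 of all targets (0%), and 3 of 77 had an unadjusted p under 0.05 beside 6.45% of all targets: Ndufs4, Ndufb5 and Atp5j, all lower in aged libraries. In experiment 2 there were 0 of 77 beside 1 of all targets (0.00706%), and at an unadjusted p under 0.05 0 of 77 beside 2.79%. The median log2 fold change of the 77 was -0.09 in experiment 1, where 47 were lower and 39% higher, beside 0.04 and 54.3% higher for all targets. In experiment 2 it was 0.07, with 51 higher (66.2%), beside 0.00 and 49.6% for all targets. The test of the difference between experiments called 0 of 77 and 0 of all targets (0%), and at an unadjusted p under 0.05 it had 2 of 77 (2.6%) beside 2.18% of all targets. All 4 complex II genes and 49 of the 65 subunit genes (75.4%) had the more positive age difference in experiment 2, beside 47.4% of all targets. These splits moved with scaling and with single libraries. Without TMM 46 of 77 were higher in experiment 1 beside 68.3% of all targets. The more positive difference in experiment 2 then held for 38 of 77 beside 34.9%, against 59 of 77 with TMM. Leaving out young 1.2 gave 45 higher in experiment 1, and leaving out young 2.1 gave 30 higher in experiment 2. DESeq2 called 0 of the 77 beside 87 of all targets in experiment 1, 53 in experiment 2 and 0 in the difference, and limma-voom 0 of the 77 beside 1, 3 and 0.

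Ndufb5, an accessory subunit of complex I, gave the smallest p in the test of that difference. In experiment 1 its aged libraries held 61.6, 62.4 and 69.3 CPM and its young libraries 81.2, 87.7 and 105.8 CPM. In experiment 2 its aged libraries held 51.1, 78.9, 83.4 and 88.0 CPM and its young libraries 59.0, 65.6, 71.0 and 80.8 CPM. The ages were thus separate in experiment 1, with aged below young, and overlapped in experiment 2. Ndufb5 was picked for its small p, and with so few libraries such a separation can arise by chance. Other genes also separated in experiment 1. Ndufs4 had aged libraries at 20.9 to 34.0 CPM and young at 41.7 to 56.2. Ndufc1 went the other way, with aged at 63.7 to 68.7 CPM and young at 48.3 to 59.7. How many genes separated within experiment 1 was not counted. The log2 fold changes of Ndufb5 were -0.51 ± 0.19 in experiment 1 and 0.13 ± 0.17 in experiment 2 (SE). Their difference was 0.63 ± 0.25 (SE, unadjusted p = 0.0266, adjusted p = 0.9998 by edgeR). Ndufaf4, an assembly factor of complex I, had a difference of 0.66 ± 0.29 (SE), and Ndufs4 one of 0.58 ± 0.32 (SE).

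The experiments were compared next. With age as a term, 2 of 77 passed an adjusted p of 0.05 by edgeR (2.6%) beside 1103 of all targets (7.79%), with 1 of 77 higher in experiment 2 beside 6.99% and 1 of 77 lower beside 0.798%. Whether the share of the 77 lay below or above that of all targets turned with the setting: it was 10.4% beside 32.8% with limma-voom, 13% beside 14.2% with DESeq2, 6.49% beside 4.32% without TMM and 2.6% beside 1.36% with a term for receptor reads. Of the calls among all targets 990 were higher and 113 lower in experiment 2, but 1886 were higher and 2763 lower with limma-voom, and 2599 and 2457 without aged 2.4. At an unadjusted p under 0.05 there were 15 of 77 (19.5%) beside 31% of all targets. The median log2 fold change of experiment 2 over experiment 1 was -0.07 for the 77, of which 50 were lower, and 0.12 over all targets. Among complex I accessory subunits 19 of 24 were lower (median -0.19), in complex III 6 of 8 and in complex IV 8 of 11. The scaling moves this zero: without TMM the median of all targets was -0.02 and that of the 77 was -0.22, so the 77 lay below the median of all targets both with and without that scaling; at like transcript length it held only for the long genes, as given with the lengths. Tissue handling, sorting and sequencing of the experiments are not described apart in the labels, so these cannot be told apart from one another.

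Ndufv3, an accessory subunit of the NADH-binding arm of complex I, was higher in experiment 2. It lay between 3.88 and 6.44 CPM in the 6 libraries of experiment 1 (median 5.10) and between 9.94 and 19.1 CPM in the 8 libraries of experiment 2 (median 12.3). The experiments did not overlap, which held for 1 of the 77 (1.3%) beside 2.17% of all targets. The log2 fold change was 1.34 ± 0.22 (SE, adjusted p = 0.00613 by edgeR), 2.53-fold. The call held in each of the 14 runs that left out 1 library. The age fold change of Ndufv3 was -0.02 ± 0.21 (SE).

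Ndufb8, a membrane-arm accessory subunit of complex I, was lower in experiment 2. It lay between 31.9 and 67.4 CPM in experiment 1 (median 45.7) and between 15.7 and 38.9 CPM in experiment 2 (median 25.3). The experiments overlapped through aged 2.1, aged 1.1 and young 1.1. The log2 fold change was -0.88 ± 0.22 (SE, adjusted p = 0.0305 by edgeR), but the call held in only 6 of the 14 runs that left out 1 library. With a term for receptor reads the value was larger, -1.02, and missed the threshold (adjusted p = 0.086 by edgeR). Uqcrb, a complex III subunit, missed the threshold at 0.55 ± 0.16 (SE, adjusted p = 0.054 by edgeR) and passed it with DESeq2 (adjusted p = 0.0353) and limma-voom (adjusted p = 0.0209), with 20.9 to 35.2 CPM in experiment 1 and 31.1 to 52.6 in experiment 2. Transcripts of 3 annotated pseudogenes match Uqcrb at 95% or more over at least 150 bases, and reads may be shared with them. Such matches were found for 10 of the 77 genes: Uqcrb, Uqcr11, Cox7b, Ndufs6, Ndufs3, Ndufb3, Ndufb11, Atp5o, Atp5k and Atp5c1, whose counts are therefore uncertain. Copies not annotated as pseudogene transcripts were not searched for, so the other genes may have some too.

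The count of genes differing between experiments, 2 of 77 (2.6%) beside 1103 of all targets (7.79%), rose most when 2 libraries were left out. Without aged 2.4 it was 9 of 77 (11.7%) beside 5056 of all targets (35.3%). Without young 2.2 it was 5 (6.49%) beside 4029 (28.3%), and without both 16 (20.8%) beside 7738 (54.5%). Leaving out other libraries could lower the count: without young 2.1 it was 1 of 77 (1.3%) beside 167 of all targets (1.17%). Aged 2.4 and young 2.2 are the experiment 2 libraries with the most receptor reads. With both left out, genes higher in experiment 2 included Atp5j2, Ndufaf1, Ndufs1, Ndufs3, Ndufv3, Sdhc, Uqcrb and Uqcrc1, and genes lower were Atp5k, Cox6a2, Cox6b2, Ndufaf3, Ndufb8, Sdhaf1 and Uqcr11. With the term for receptor reads in the fit, 2 of 77 were called, Ndufv3 and Cox7a1, beside 192 of all targets.

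**Figure D3:**
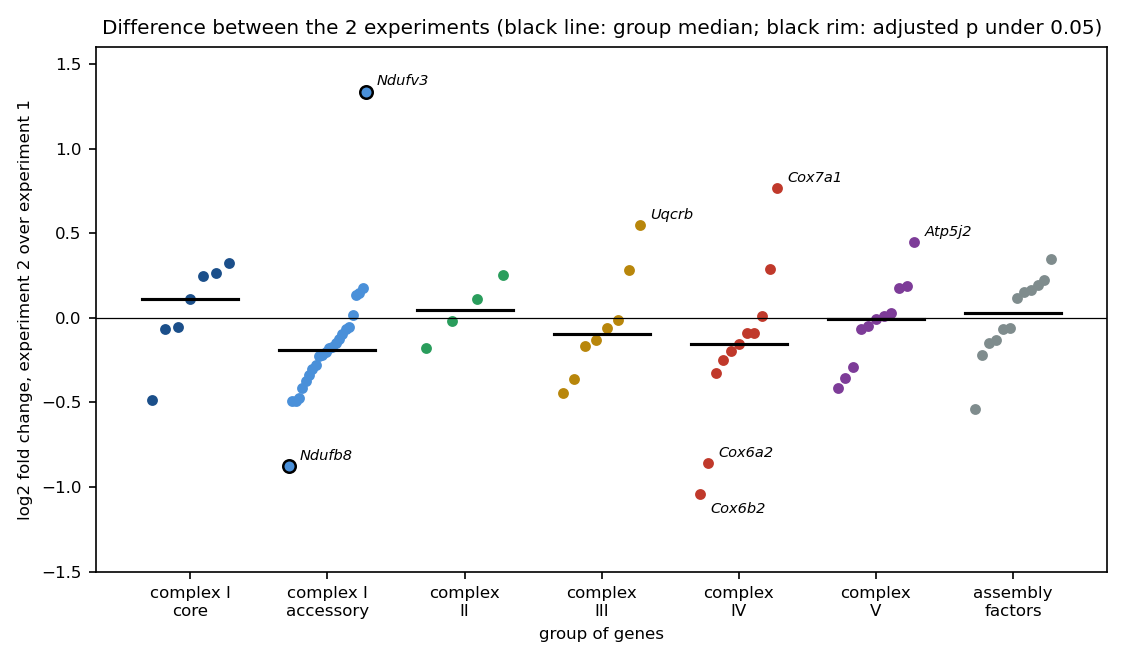
Log2 fold change of experiment 2 over experiment 1 for each of the 77 genes (points), grouped by complex; black lines are group medians and black rims mark an adjusted p under 0.05 by edgeR. Ndufv3 stands highest at 1.34, Ndufb8 carries the other rim, and most complex I accessory subunits lie below 0.

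Transcript length went with the experiment difference. The 26 genes with the shortest transcripts (315 to 678 bases) had a median log2 fold change of -0.20, with 21 of 26 lower in experiment 2, and the 26 with the longest (1142 to 4323 bases) one of 0.07, with 11 of 26 lower. All tested targets of the same lengths that are not receptors had medians of -0.39 and 0.18, so the short genes among the 77 lay above like targets and the long ones below. The 25 genes of middle length (680 to 1082 bases) had -0.07 beside -0.17 for like targets. Across the 77 genes Spearman's rho of length with the experiment log2 fold change was 0.42, and across 12196 targets that are not receptors it was 0.31. With the age log2 fold change rho was -0.34 across the 77. These are descriptions across genes, which share their libraries and are not independent replicates. The many short subunits among the 77 carry this relation to length with them, and its part in the experiment difference was not tested.

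Most of the genes, but not all, moved together from library to library. After each gene's mean within age and experiment was removed, the 2926 pairs of the 77 genes had a mean Pearson r of 0.30 (median 0.39) over the 14 libraries, beside a mean of 0.01 over all pairs of tested targets. The mean for pairs within a group, 0.31, and for pairs of different groups, 0.30, were about the same. Atp5mpl, Ndufa1, Atp5g3, Sdhaf4 and Ndufa6 had the highest mean r with the other genes, from 0.50 to 0.53. Cox7a1, Sdhaf1, Cox6b2, Cox6a2 and Ndufaf8 went against the rest, with a mean r from -0.45 to -0.23. Of all pairs of the 77 genes 77% had an r above 0. All pairs share the same libraries and the same scaling, and the pairs of all targets were not matched for level.

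Single libraries stood out. Relative to each gene's mean within age and experiment, aged 2.4 had the lowest median, -0.40 on the log2 scale, and aged 2.2 and young 1.2 the highest, 0.23 and 0.21. Relative to each gene's mean over all 14 libraries aged 2.4 was again the lowest, with a median of -0.45 and 17 of 77 genes above their mean. On that scale young 1.2 was the highest, with a median of 0.27 and 69 of 77 genes above, followed by aged 2.2 at 0.21 with 63 above. In aged 2.4 the median was -0.62 for complex III, -0.59 for complex V, -0.54 for complex II and -0.52 for complex I accessory subunits, but -0.21 for complex IV and -0.18 for assembly factors. Aged 1.3, the library rich in hepatocyte markers, had complex IV at 0.26 and complex I accessory subunits at 0.17, with complex II at -0.31 and complex I core subunits at -0.24; the part of other cells in this was not tested. Without aged 2.4 the median age log2 fold change of the 77 was 0.06, without aged 1.3 it was 0.00, and without young 1.2 it was 0.05, with 0 of 77 called each time.

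**Figure D4:**
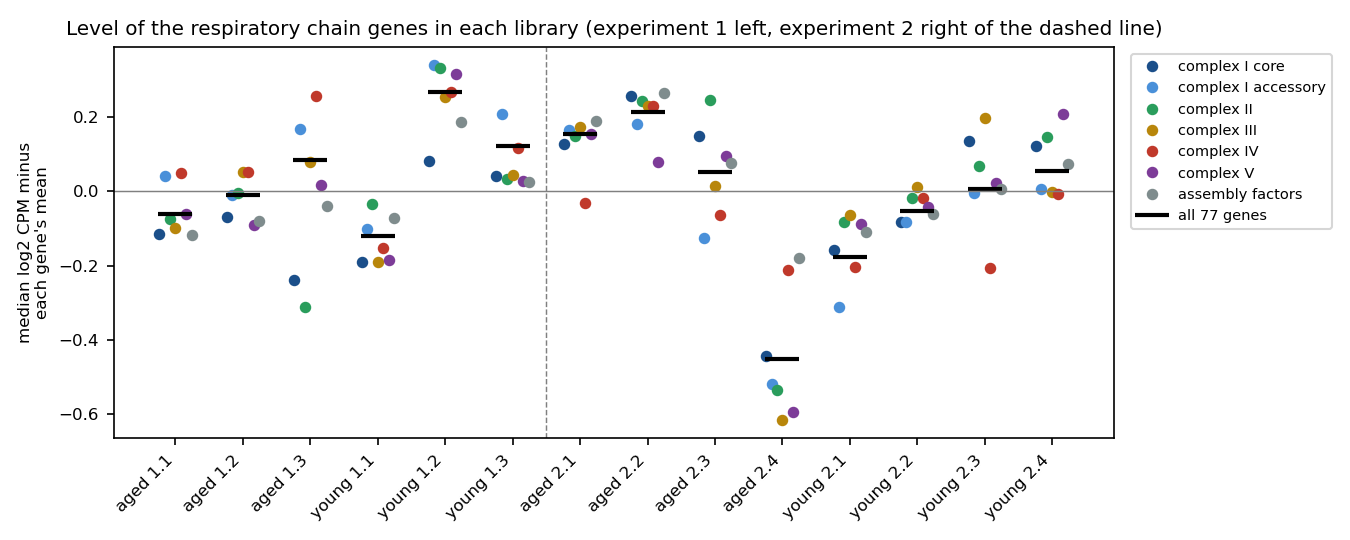
Median log2 CPM of each group of genes in each library, relative to each gene's mean over the 14 libraries; coloured points are complexes and black bars all 77 genes. The black bar is lowest in aged 2.4 (-0.45) and highest in young 1.2 (0.27), and aged and young libraries interleave.

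Several complex IV subunits exist as a common isoform and one known from muscle, testis or lung. Of the restricted isoforms Cox4i2 had 0 to 3 reads per library and Ndufa4l2 had 1 to 9, beside 535 to 1486 for Cox4i1 and 1786 to 3753 for Ndufa4. Cox8b had 0 to 4 reads and its common form Cox8a only 2 to 14. Cox6a2 and Cox7a1, the muscle and heart forms, and Cox6b2, the testis form, passed the read total with 536, 370 and 1011 reads. These 3 had the highest coefficients of variation of the 77 genes, 73.2%, 90.3% and 69.4%, beside a median of 21.1%.

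Cox6b2 ranged from 0.954 to 14.7 CPM in aged libraries (median 9.298) and from 2.32 to 10.5 in young (median 3.93). Cox6a2 ranged from 0.398 to 7.37 CPM in aged libraries (median 4.12) and from 0.682 to 6.49 in young (median 2.27). The ages overlapped widely, with age log2 fold changes of 0.22 ± 0.56 and 0.26 ± 0.65 (SE) that turned to -0.37 and -0.24 without aged 2.4. The libraries with many receptor reads held the most of both genes: in experiment 2 aged 2.4 had 11.5 CPM of Cox6b2, young 2.2 had 10.5 and the other 6 had no more than 3.35.

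Over the 14 libraries the log2 share of receptor reads was compared with that of the 77 genes and of these 3 isoforms, 4 relations in all. For Cox6b2 Pearson's r reached 0.98 (p = 1e-05 in a permutation test, which is the smallest that 100000 permutations can give, adjusted p = 2e-05) and Spearman's rho 0.93 (p = 2e-05, adjusted p = 4e-05), with r = 0.96 without the 2 libraries farthest from the median and 0.94 and 0.97 within experiments 1 and 2. For Cox6a2 r was 0.96 (permutation p = 1e-05, adjusted p = 2e-05) and rho 0.94 (p = 1e-05, adjusted p = 4e-05), with 0.93 without the 2 farthest and 0.92 and 0.96 within the experiments. For Cox7a1 r was 0.46 (permutation p = 0.0958, adjusted p = 0.128) and rho 0.57 (p = 0.0338, adjusted p = 0.045), with 0.42 without the 2 farthest and 0.95 and 0.85 within the experiments. For the 77 genes together r was 0.30 (permutation p = 0.288) and rho 0.28 (p = 0.333), with 0.32 without the 2 farthest and -0.41 and -0.03 within the experiments, so no relation was detected there. Sdhaf1 showed a like pattern in experiment 2, with 99.2 and 54.7 CPM in aged 2.4 and young 2.2 and 14.95 to 33.5 CPM in the other 6, and was named for this after its values were seen.

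**Figure D5:**
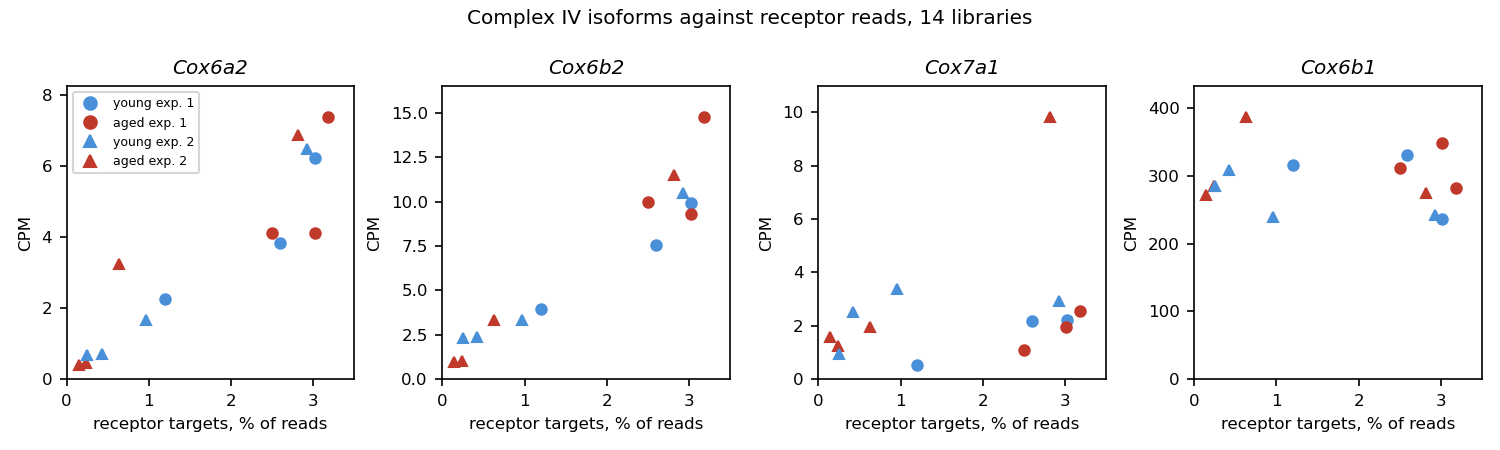
CPM of the restricted isoforms Cox6a2, Cox6b2 and Cox7a1 and of the common isoform Cox6b1 (vertical axes) against the share of gene reads on receptor targets (horizontal axes) in 14 libraries; circles are experiment 1, triangles experiment 2, red aged and blue young. Cox6a2 and Cox6b2 rise with receptor reads, aged 2.4 stands alone in Cox7a1 at 9.81 CPM, and Cox6b1 lies between 236 and 387 CPM throughout.

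Cox7a1 reads came to 12.7% of those of Cox7a2 in aged 2.4, beside 0.287 to 3.63% in the other 13 libraries. The log2 ratio of Cox7a1 to Cox7a2 counts (0.5 added) averaged -5.96 ± 1.38 in aged and -6.09 ± 1.16 in young libraries (SD, n = 7 each), a difference of 0.14 (two-sided exact permutation test within experiments, p = 0.841). That of Cox6b2 to Cox6b1 averaged -6.00 ± 1.63 and -5.84 ± 1.02 (SD, n = 7 each), a difference of -0.16 (exact permutation p = 0.811, adjusted p = 0.841 over the 2 pairs). The other pairs had fewer than 5 reads in some library and were not tested. Summed markers of striated muscle were 2.69 to 24.9 CPM, highest in aged 2.4, and 3 of the 6 with a target stayed under 1 CPM in every library; the part of other cells in these isoform reads was not tested.

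The remaining genes of the pathway gave no age call either. Of 23 tested assembly factors of complexes III and IV (28 listed) 13 were higher and 10 lower in aged libraries, with Cox10, which works in heme A synthesis, at a log2 fold change of -0.20 ± 0.09 and Surf1 at 0.31 ± 0.16 (SE, adjusted p = 0.693 and 0.808 by edgeR). Of 12 tested citric acid cycle genes 9 were lower (median -0.09), with Idh3a at -0.23 ± 0.11 and Sucla2 at -0.22 ± 0.12 (SE). Of 12 regulators of mitochondrial biogenesis 8 were higher, with Pprc1 at -0.22 ± 0.16 and Myc at -0.69 ± 0.51 (SE). Of 11 coenzyme Q genes 6 were higher, of 11 import genes 6, of 7 other complex I assembly factors 3 and of 2 tested ATP synthase assembly factors 2. The smallest p in those lists were for Coq3 at 0.44 ± 0.26, Timm50 at -0.42 ± 0.23 and Tmem126b at 0.42 ± 0.29 (SE). Cyc1, the cytochrome c1 of complex III whose symbol the prefixes miss, had an aged mean of 120 ± 9.86 CPM and a young mean of 121 ± 15.3 CPM (SD, n = 7 each). In glycolysis, the other main source of ATP, 6 of 11 genes were higher, with Ldhb, a lactate dehydrogenase subunit, at 0.35 ± 0.09 and Ldha, the other, at -0.49 ± 0.18 (SE, adjusted p = 0.257 and 0.636 by edgeR).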

How the data were processed

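The authors deposited raw read counts per RefSeq target, 1 file per library, made from Ion AmpliSeq mouse transcriptome libraries per the labels' protocols. HTSeq 0.6.0 and DESeq2 1.18.1 are named in the submitters' processing notes. The aligner, build and strand setting were not given in the sources used here. Amplicon reads carry no molecular identifiers. Short targets and shared reads may also move a count, which was not tested. The 5 bookkeeping entries (1.24 to 3.04% of reads) were left out. Symbols came from RefSeq tables of GRCm38.p6 and GENCODE: 18128 targets matched with version, 4324 without, 110 through GENCODE, and 1368 stayed unmatched but in the tests.

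In R 4.3.3, edgeR 4.0.16 fitted the counts of 14168 targets kept by filterByExpr (all 77 genes among them) with TMM scaling and quasi-likelihood F tests. The age fit had experiment as a term, and a model with 4 means gave each experiment and their difference. DESeq2 1.42.0 and limma 3.58.1 (voom) were alternatives, beside other scalings and filters, a term for receptor reads, a replicate block and leaving out libraries. A call means a p under 0.05 after Benjamini-Hochberg adjustment. Intervals are the log2 fold change with its SE, which was taken from the F statistic. The steps were tested on simulated data. Genes named are those called, the 3 with the smallest age p and the most and least counted per group, the isoform pairs, the 3 with the smallest p between experiments and in the difference, and 2 per further list. The genes and lists were chosen with earlier results of these data known. Of the 77 genes 1 entered every count but is not reported by name here.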

Additional observations from a re-analysis of the deposited data

Results flagged for a closer look

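In 7 of 84 groups of 7 libraries checked, 1 library lay far from the others of its age; chance gives this in about 1 of 20 groups. In aged 2.4 Sdhb was at 22.5 CPM against 56.0 to 80.4 in the other aged libraries, and Atp5g3 at 117 CPM against 217.0 to 270.2. Cox7a1 was at 9.81 CPM in aged 2.4 against 1.10 to 2.56, and its log2 ratio to Cox7a2 was -2.97 against -7.02 to -5.71. In young 1.2, the library with the highest level of the 77 genes, Sdhb was at 88.4 CPM against 46.2 to 61.1 in the other young libraries and Ndufs4 at 56.2 CPM against 38.4 to 45.3. Ndufa4 was at 303 CPM in aged 1.3 against 234 to 260 in the other aged libraries.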

How the results depend on the processing

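None of the 77 genes was called for age in the 26 alternatives. Calls among all targets, 23, were 46 without TMM, 146 with DESeq2, 10 at 10 CPM or more in 7 libraries, 12 without the experiment term, 59 with a receptor term, 36 without young 2.2 and aged 2.4, 4 with aged 1.1 and 1.2 summed, and 4 to 29 when 1 library was left out. Aged 1.1 and 1.2 were the most alike pair but differed beyond counting noise (chi-square per degree of freedom 6.37, against 18.2 to 125 for other pairs). Whether the replicate numbers pair the samples could not be decided. The r of same-numbered libraries ran from -0.39 to 0.78, and that of differently numbered ones was not computed. The replicate block gave 5 calls over all targets and 0 of 77. The experiment comparison, 2 of 77 beside 1103 of all targets, gave 5 beside 612 without TMM, 10 beside 2006 with DESeq2, 8 beside 4649 with limma-voom, 16 beside 7738 without young 2.2 and aged 2.4, 1 beside 325 with aged 1.1 and 1.2 summed, and 1 to 9 beside 167 to 5056 when 1 library was left out; the cause was not tested.

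Of 39 genes checked for age, 23 kept their sign throughout and 16 did not, all with log2 fold changes that missed the threshold. The ranges with 1 library left out were -0.134 to 0.005 for Atp5a1, -0.074 to 0.163 for Atp5d, -0.223 to 0.003 for Cox4i1, -0.24 to 0.86 for Cox6a2, -0.37 to 0.66 for Cox6b2, -0.23 to 0.55 for Cox7a1, -0.072 to 0.025 for Ndufa4, -0.06 to 0.18 for Ndufb8, -0.151 to 0.044 for Ndufv3, -0.22 to 0.47 for Sdhaf1, -0.061 to 0.09 for Sdhaf2, -0.112 to 0.066 for Sdhaf3 and -0.084 to 0.151 for Sdhb. Some that kept their sign with 1 library left out also came close to 0: Atp5g3 (-0.183 to -0.005), Cox6a1 (0.007 to 0.316), Ndufa3 (0.029 to 0.24), Ndufb9 (-0.101 to -0.006) and Ndufv1 (0.02 to 0.264), and Ndufa13 ranged from 0.116 to 0.29. The isoform differences ranged from -0.52 to 0.18 (Cox6b2) and -0.33 to 0.39 (Cox7a1). Signs also changed without TMM for Ndufa4 (0.047), Ndufb9 (0.017), Ndufv3 (0.034) and Sdhaf3 (0.007), with limma-voom for Ndufv1 (-0.028), Ndufv3 (0.002) and Sdhb (-0.055), and with the receptor term for Atp5d (-0.01) and Sdhb (-0.069). They changed with the replicate block for Atp5d (0.0) and Sdhb (-0.037), and without young 2.2 and aged 2.4 for Atp5g3 (0.013), Cox7a1 (-0.167) and Sdhaf1 (-0.016). They changed at 10 CPM for Ndufa4 (0.018) and Ndufv3 (0.007), without a filter for Sdhb (-0.006), without the experiment term for Ndufv3 (0.006) and with aged 1.1 and 1.2 summed for Ndufa4 (0.007). A filter by age and experiment, added after seeing the data, gave Ndufa4 0.007 and Ndufv3 0.018. Depth limits the low genes: Cox6a2 had 4 reads in its lowest library.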
